A study of Homo sapiens with 6 samples.

Results

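The SLCO genes encode the organic anion transporting polypeptides (OATPs), membrane proteins that carry bile acids, steroid sulfates, thyroid hormones, prostaglandins and many drugs into cells. They were measured here in DU145, a human prostate cancer line. The 8 members described are SLCO4A1, its antisense RNA SLCO4A1-AS1, SLCO3A1, SLCO2A1, SLCO2B1, SLCO1B3, SLCO4C1 and SLCO5A1. They were selected by symbol from 60623 gene entries, and the set was chosen by a proposal made with the counts, the TPM (a level scaled for library total and transcript length) and the CCS1477 against DMSO differences of these same libraries in view. Their levels and fold changes are therefore a description, no p-value is given for them, and nothing is supported with them. They include 7 of the 12 SLCO transporter genes in the files, and the other 5 are given by their counts further on.

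Cells in 1 group (3 libraries) received DMSO, the solvent, and cells in the other (3 libraries) received 1 µM CCS1477, known as inobrodib, a bromodomain inhibitor of p300 and CBP, both histone acetyltransferases. Treatment lasted 24 h in both groups, the genotype was labelled wild type, and poly-A RNA was sequenced. The labels do not say whether the replicates were separate cultures, so errors and p-values measure the spread among these 6 samples alone, and that spread may be technical. In bulk RNA, fewer cells with a transcript and less of it per cell cannot be told apart.

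OATPs work without sodium, and differ mainly in what they carry. In the prostate, SLCO2B1 and SLCO1B3 are known for the uptake of androgens and their sulfates. SLCO2A1 is the prostaglandin transporter, SLCO4A1 carries thyroid hormones and oestrone sulfate, SLCO4C1 is a kidney transporter of digoxin and thyroid hormone, SLCO3A1 carries prostaglandins and thyroxine, and SLCO5A1 has no settled substrate. Tumours are known to make a form of SLCO1B3 from a start inside the gene that differs from the liver form, and values per gene do not separate the forms.

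Promoter sequences from RefSeq (GRCh38.p14) were found for 5 of the 8 members. The 250 bases before the RefSeq start are shown, 5′ to 3′ on the gene's strand, for 4 genes with different levels (of the entries for SLCO3A1, the upstream one): an antisense RNA that was lower after CCS1477, a transporter at a moderate level, 1 whose groups overlapped, and 1 listed at 0. Capitals mark TGACG or its reverse complement CGTCA, the core that CREB (a partner of CBP) binds, and ACGTG or its reverse complement CACGT, the core of hypoxia response elements.
SLCO4A1-AS1 (chr20:62666622-62666871, minus strand): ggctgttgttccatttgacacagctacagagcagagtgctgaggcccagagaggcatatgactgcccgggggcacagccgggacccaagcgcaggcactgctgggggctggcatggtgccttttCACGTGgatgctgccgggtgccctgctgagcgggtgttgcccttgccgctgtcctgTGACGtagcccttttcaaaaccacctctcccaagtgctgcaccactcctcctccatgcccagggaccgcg
SLCO1B3 (chr12:20810455-20810704, plus strand): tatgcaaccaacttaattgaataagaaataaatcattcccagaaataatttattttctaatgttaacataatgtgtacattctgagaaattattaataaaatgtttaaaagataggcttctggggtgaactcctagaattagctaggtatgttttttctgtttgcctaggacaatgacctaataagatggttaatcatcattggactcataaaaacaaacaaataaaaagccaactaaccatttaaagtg
SLCO4C1 (chr5:102296285-102296534, minus strand): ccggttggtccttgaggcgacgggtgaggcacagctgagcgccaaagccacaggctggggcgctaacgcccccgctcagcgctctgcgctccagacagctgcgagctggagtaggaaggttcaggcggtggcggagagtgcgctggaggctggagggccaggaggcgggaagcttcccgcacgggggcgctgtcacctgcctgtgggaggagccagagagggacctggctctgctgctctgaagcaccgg
SLCO3A1 (chr15:91853458-91853707, plus strand): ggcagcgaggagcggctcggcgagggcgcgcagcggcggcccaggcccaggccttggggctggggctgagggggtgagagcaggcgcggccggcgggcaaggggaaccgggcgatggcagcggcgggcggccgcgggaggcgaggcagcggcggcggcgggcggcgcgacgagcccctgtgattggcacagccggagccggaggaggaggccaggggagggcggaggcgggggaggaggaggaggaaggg

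The SLCO4A1-AS1 window lies between the start and end of SLCO4A1 in the deposited files, and whether it overlaps SLCO4A1 exons was not tested. By the coordinates of the deposited files, which put the start of the gene farther upstream than RefSeq does, the last 103 of its 250 bases lie inside SLCO4A1-AS1. It held TGACG once, at bases 181 to 185 and so inside the gene by those coordinates, and a palindromic CACGTG that matches ACGTG on each strand, and the windows of SLCO1B3, SLCO4C1 and SLCO3A1 held neither core. Over all 35116 RefSeq windows of the same length, 21.2% held TGACG and 18.5% held ACGTG on either strand, so both are common. A match describes the letters in this window and is not evidence of binding. The window of SLCO1B3 was AT-rich, with 28.4% G and C and 0 CpG pairs, and only 0.903% of all windows had a lower G and C share. The window of SLCO3A1 had 80.4% G and C and 32 CpG pairs, against a median of 58% and 11 over all windows. The gene with the CpG-poor window was measured at a moderate level, and the gene with the CpG-rich window was listed at 0 in every library. The SLCO1B3 window precedes the RefSeq start, while the tumour form starts inside the gene, and which form was measured is not known. The 0 of SLCO3A1 can also be a failed estimate. Any relation between these windows and the levels was not tested.

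Library totals ran from 8286883 to 11956748 estimated counts. A floor of 3 counts corresponded to 0.251 to 0.362 CPM, the counts scaled to an equal library total, which covers counting error only. The 5 epithelial markers (KRT8, KRT18, KRT19, EPCAM, CDH1) were at or above 29.40 TPM in all 6 libraries. CDH1, which encodes E-cadherin, was lower in every CCS1477 library than in every DMSO library, at 75.1, 79.52 and 49.29 TPM in DMSO and 33.72, 30.24 and 29.4 TPM in CCS1477, and its part in the results was not tested. The luminal prostate markers KLK3, KLK2, HOXB13 and FOLH1 were listed at 0 in every library, and TMPRSS2 was at 0 to 0.19 TPM. PTPRC of leukocytes and PECAM1 of endothelium were listed at 0. The leukocyte marker ITGAM was at 0.13, 0.79 and 0.47 TPM in the DMSO libraries and 0.03, 0 and 0 TPM in the CCS1477 libraries. The endothelial marker CDH5 was at 0.43 TPM in DMSO library 3 and at 0 in all others. The part of ITGAM and CDH5 in the results was not tested. ALB and TTR of hepatocytes, the usual source of SLCO1B3, were also listed at 0. The hepatocyte marker APOA1 was at 0.17, 1.03 and 0.67 TPM in DMSO libraries 1, 2 and 3 and at 0, 0.44 and 0.23 TPM in CCS1477 libraries 1, 2 and 3, and its part in the values of SLCO1B3 was not tested. The fibroblast markers summed to 5.4 to 10.99 TPM in DMSO and 4.3 to 5.44 in CCS1477, nearly all from COL1A1, with DCN and LUM at 0, and the part of this in the results was not tested.

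Of the 8 members, 5 were expressed, taken as a mean of at least 1 TPM in either group: SLCO4A1, SLCO1B3, SLCO4A1-AS1, SLCO2A1 and SLCO4C1. The same 5 passed the filter on low counts, and SLCO2B1, SLCO5A1 and SLCO3A1 did not. SLCO4A1-AS1 reached the filter level of 1.1 CPM in 3 DMSO libraries and 0 CCS1477 libraries, and SLCO2A1 in 3 and 2. Neither reached it in every CCS1477 library, so the filter let both in through DMSO, the group where they are higher.

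SLCO4A1 dominated the family. TPM summed over the 12 transporter genes came to 264.6 ± 34.8 in DMSO and 90.2 ± 5.35 in CCS1477 (SD, n = 3), and SLCO4A1 made up 91.9% ± 1.19 and 86.3% ± 1.98 of it. The other 11 transporters together came to 21.3 ± 0.982 TPM in DMSO and 12.4 ± 1.92 TPM in CCS1477. By TPM, SLCO4A1 ranked between 458 and 592 among all genes in the DMSO libraries and between 1869 and 2174 in the CCS1477 libraries.

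**Figure D1:**
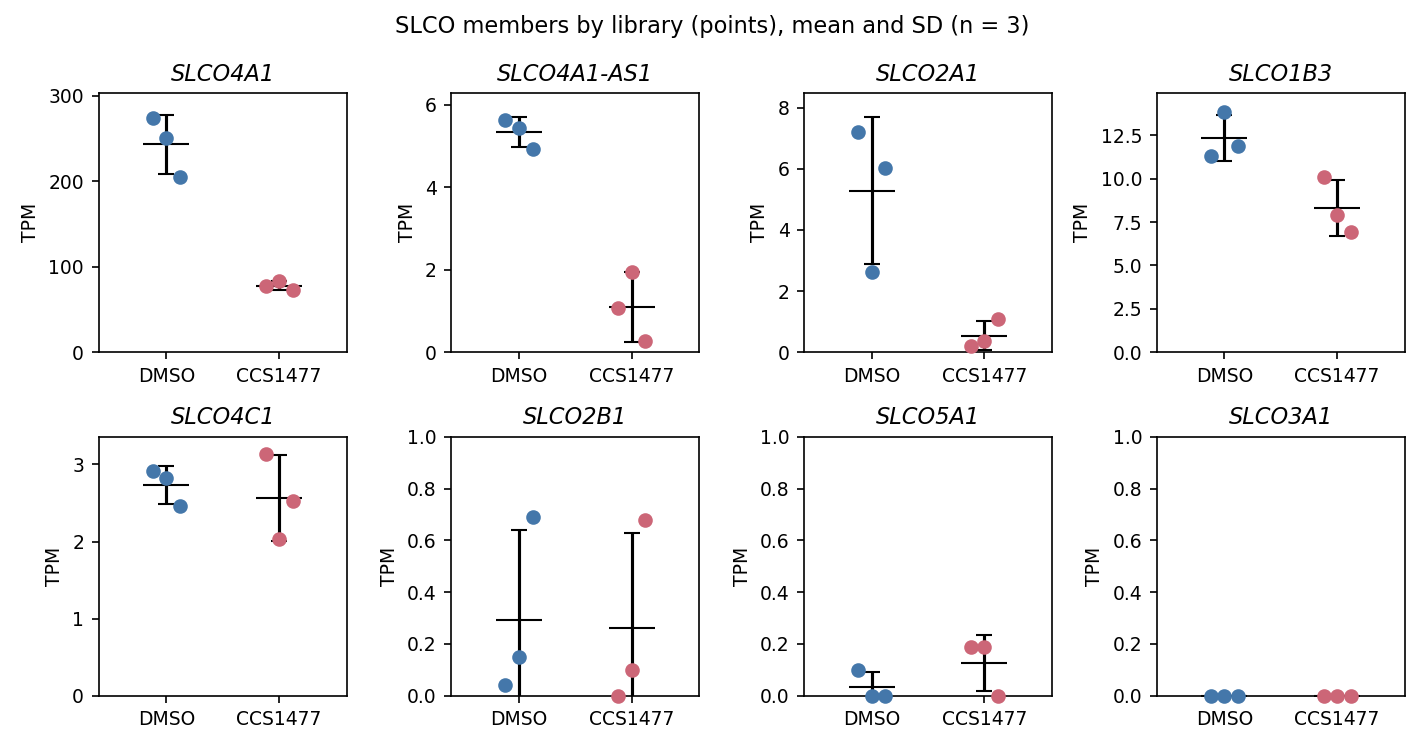
TPM of the 8 members in each library (points, blue for DMSO and red for CCS1477, 3 libraries per group), with the mean (line) and SD (bar), on linear axes from 0 with a separate scale per gene. The groups are apart for SLCO4A1, SLCO4A1-AS1, SLCO2A1 and SLCO1B3 and overlap for SLCO4C1, SLCO2B1 and SLCO5A1, while SLCO3A1 is at 0 throughout.

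SLCO4A1 (ENSG00000101187, chromosome 20, 62642503 to 62685785, plus strand) stood at 273.46, 251.01 and 205.27 TPM in DMSO libraries 1, 2 and 3 and at 77.97, 82.88 and 72.6 TPM in CCS1477 libraries 1, 2 and 3. Every DMSO library was far above every CCS1477 library, and the CCS1477 libraries lay closer together than the DMSO libraries. In CPM it went from 400.7 ± 47.8 to 122.2 ± 2.31 (SD, n = 3), a log2 fold change of -1.71 ± 0.10 (SE), or 3.28-fold lower. Of the 14928 genes tested, 176 had a lower fold change.

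SLCO4A1-AS1 (ENSG00000232803, chromosome 20, 62663019 to 62666724, minus strand) is a long noncoding RNA transcribed from the other strand inside SLCO4A1. It had 31, 36 and 23 counts in DMSO libraries 1, 2 and 3 and 8, 9 and 2 in CCS1477 libraries 1, 2 and 3. As TPM these were 5.64, 5.44 and 4.93 against 1.07, 1.95 and 0.26. The groups did not overlap, and CCS1477 library 3, with 2 counts, was below the floor. The log2 fold change was -2.02 ± 0.46 (SE), or 4.05-fold lower, with a standard error over 4 times that of SLCO4A1.

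Reads of the RNA and of its host could be mixed. In GENCODE 29, 346 of the 1534 exonic bases of SLCO4A1-AS1 (22.6%) also lie in exons of SLCO4A1, and the strandedness of the counting is not given in the sources used here. Counts of SLCO4A1-AS1 equalled 0.593%, 0.758% and 0.806% of those of SLCO4A1 in the DMSO libraries and 0.739%, 0.779% and 0.183% in the CCS1477 libraries. The proportion was thus alike in 5 libraries, while both genes were lower after CCS1477, and how many of these counts came from SLCO4A1 transcripts was not tested. With all antisense counts of the locus added, SLCO4A1 had a log2 fold change of -1.71 ± 0.10 (SE). These counts were too few beside those of SLCO4A1 to move its fold change much. The addition therefore does not show where the SLCO4A1-AS1 counts came from.

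Another antisense entry of the locus, SLCO4A1-AS2 (ENSG00000277496), shares 0 exonic bases with SLCO4A1. It had 30, 31 and 25 counts in DMSO libraries 1, 2 and 3 and 17, 11 and 13 in CCS1477 libraries 1, 2 and 3. The groups were apart, but the log2 fold change of -0.86 ± 0.36 (SE) did not pass (adjusted p = 0.118, Benjamini-Hochberg over all tested genes in edgeR). Its counts equalled 0.701% ± 0.157 of those of SLCO4A1 in DMSO and 1.24% ± 0.312 in CCS1477 (SD, n = 3). The remaining antisense entries, ENSG00000167046 and ENSG00000276317, had 0 to 6 counts per library.

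SLCO2A1 (ENSG00000174640, chromosome 3, 133928145 to 134052184, minus strand), which brings prostaglandins back into cells for breakdown, had the lowest fold change of the members. Its counts were 123, 81 and 71 in DMSO libraries 1, 2 and 3 and 11, 7 and 14 in CCS1477 libraries 1, 2 and 3. Every CCS1477 library was far below every DMSO library. CPM went from 8.71 ± 1.78 to 1.19 ± 0.437 (SD, n = 3), a log2 fold change of -2.87 ± 0.32 (SE), or 7.33-fold lower, and 38 of the 14928 tested genes had a lower one.

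The TPM of SLCO2A1 was less even than its counts, at 7.22, 2.61 and 6.04 in DMSO libraries 1, 2 and 3 and 0.2, 0.36 and 1.07 in CCS1477 libraries 1, 2 and 3. Counts per TPM, divided by the library's median over tested genes, follow the transcript length the quantification gave a gene. This ratio ran from 0.836 to 4.13 for SLCO2A1. For SLCO4A1-AS1 it ran from 0.306 to 0.374 in DMSO and from 0.317 to 0.571 in CCS1477. The ratio ran from 1.025 to 1.275 for SLCO1B3, from 2.34 to 2.38 for SLCO4C1 and from 0.957 to 1.12 for SLCO4A1. For SLCO2A1, DMSO library 2 had the lowest DMSO TPM and the highest DMSO ratio, 1.75, and CCS1477 library 1 had the highest ratio of all. On the log2(TPM + 1) scale, which understates changes of low genes, the difference in SLCO2A1 was -1.98.

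SLCO1B3 (ENSG00000111700, chromosome 12, 20810702 to 20916911, plus strand), best known as a liver uptake transporter, stood at 11.28, 13.84 and 11.9 TPM in DMSO libraries 1, 2 and 3. It stood at 10.11, 7.89 and 6.93 TPM in CCS1477 libraries 1, 2 and 3. The groups were apart, but CCS1477 library 1 was close to DMSO library 1. CPM went from 23.2 ± 3.03 to 14.9 ± 3.11 (SD, n = 3), a log2 fold change of -0.64 ± 0.17 (SE), or 1.56-fold lower. Of the tested genes, 8.77% had a lower fold change.

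The gene lies in a cluster with SLCO1B7 and SLCO1B1 and overlaps an SLCO1B3-SLCO1B7 readthrough entry. The readthrough entry held 9.05 counts in DMSO library 3 and 0 in the other 5 libraries. Adding the counts of that entry and of SLCO1B7 to SLCO1B3 gave a log2 fold change of -0.66 ± 0.17 (SE).

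SLCO4C1 (ENSG00000173930, chromosome 5, 102233986 to 102296284, minus strand) had groups that overlapped. It stood at 2.92, 2.83 and 2.46 TPM in DMSO libraries 1, 2 and 3 and at 3.14, 2.03 and 2.53 TPM in CCS1477 libraries 1, 2 and 3. CCS1477 library 1 was the highest of all 6 and CCS1477 library 2 the lowest. The log2 fold change was -0.15 ± 0.19 (SE).

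SLCO2B1 (ENSG00000137491, chromosome 11, 75100563 to 75206549, plus strand) had 1, 4 and 6 counts in DMSO libraries 1, 2 and 3 and 0, 2 and 2 in CCS1477 libraries 1, 2 and 3. SLCO5A1 (ENSG00000137571, chromosome 8, 69667046 to 69834978, minus strand) had 2, 0 and 0 counts in DMSO and 3, 2 and 0 in CCS1477. SLCO3A1 (ENSG00000176463, chromosome 15, 91853708 to 92172435, plus strand) was listed at 0 in all 6. No difference was detectable at this depth for SLCO2B1 or SLCO5A1. For SLCO3A1 an exact 0 in every library can also be a failed estimate, which was not tested, so no upper limit is given for it. SLCO2B1 had more than 3 counts in 2 libraries and SLCO5A1 in 0.

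By TPM, which allows levels of different genes to be set side by side, SLCO4A1 came first in every library and SLCO1B3 followed it. In DMSO the next were SLCO4A1-AS1 at 5.34 ± 0.366, SLCO2A1 at 5.29 ± 2.39 and SLCO4C1 at 2.74 ± 0.244 TPM (SD, n = 3). The range of SLCO2A1 overlapped those of both its neighbours in this order, so only the distance between SLCO4A1-AS1 and SLCO4C1 exceeded the spread. In CCS1477 the order was SLCO4C1 at 2.57 ± 0.556, SLCO4A1-AS1 at 1.09 ± 0.845 and SLCO2A1 at 0.543 ± 0.463 TPM, where the last 2 overlapped. SLCO2A1 and SLCO4A1-AS1 thus stood above SLCO4C1 by mean TPM in DMSO and below it in CCS1477. In CPM, SLCO4C1 had the highest mean of these genes in DMSO too, at 10.2, against 8.71 for SLCO2A1 and 2.85 for SLCO4A1-AS1. The order by TPM in DMSO therefore depends on the transcript lengths that the quantification gave.

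Across the fit of all 14928 tested genes, 10.7% were called lower and 7.23% higher with CCS1477 at an adjusted p of 0.05, and 19.3% had CCS1477 values all below the DMSO values. Of the members, 4 were called lower (SLCO4A1, SLCO4A1-AS1, SLCO2A1 and SLCO1B3), 0 were called higher, 1 (SLCO4C1) was not called, and 3 were not tested. The 4 called were also the 4 with groups apart. Because these values were known when the members were chosen, nothing is read from that count. With SLCO1B3, the call ended without DMSO library 1, DMSO library 2, CCS1477 library 2 or CCS1477 library 3, and on both log2 TPM scales.

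**Figure D2:**
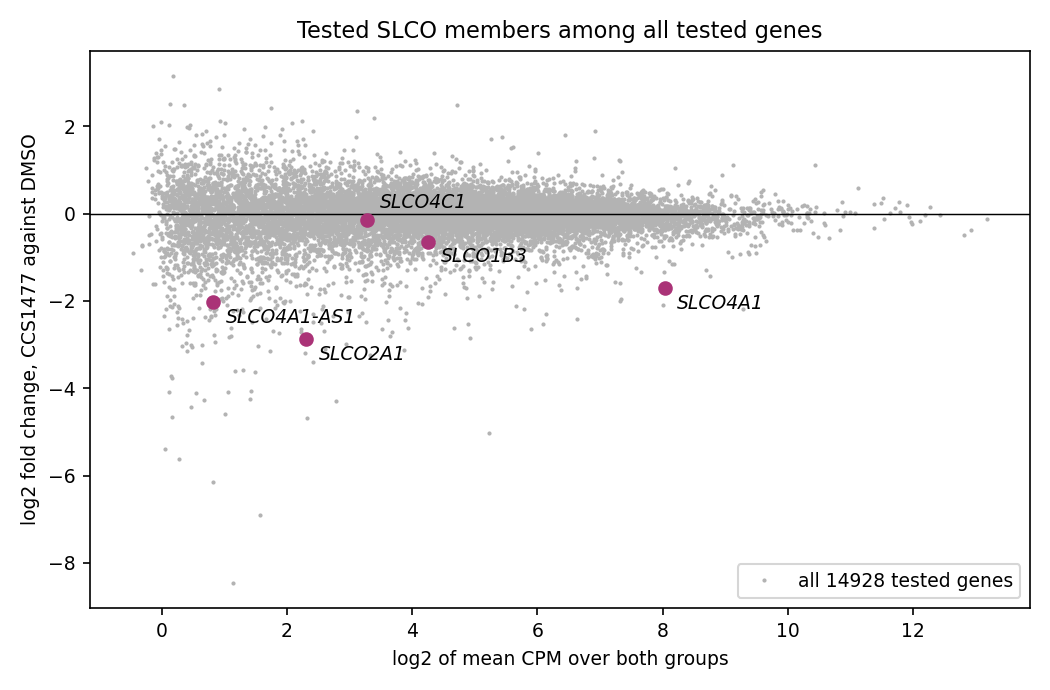
Log2 fold change of CCS1477 against DMSO (vertical axis) against the log2 of mean CPM over both groups (horizontal axis) for the 14928 tested genes in grey, with the 5 tested members in purple. SLCO4A1 is at -1.71, with 176 genes lower, SLCO2A1 at -2.87 and SLCO4A1-AS1 at -2.02 lie among the lower genes of low level, and SLCO4C1 at -0.15 is near 0.

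**Figure D3:**
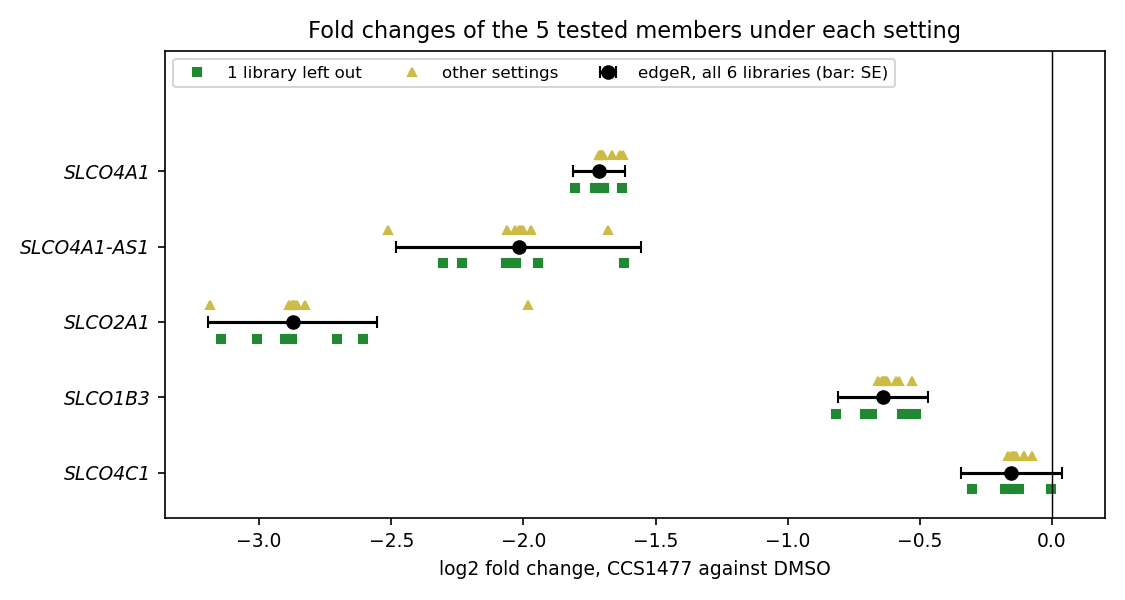
Log2 fold change of each tested member in the edgeR fit with all 6 libraries (black, bar: SE), with 1 library left out (green squares) and under the other settings (yellow triangles). SLCO4A1 stayed between -1.81 and -1.62, SLCO2A1 between -3.19 and -1.98, SLCO1B3 between -0.82 and -0.52 and SLCO4C1 between -0.30 and -0.01.

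The other 5 SLCO transporter genes were all below 1 TPM in mean and none passed the filter. SLCO1B7, a putative transporter next to SLCO1B3, had 6, 9 and 4.39 counts in DMSO libraries 1, 2 and 3 and 5, 3 and 3 in CCS1477 libraries 1, 2 and 3. SLCO1B1, a liver transporter of statins and bilirubin conjugates, had 4, 3 and 2 counts in DMSO and 8, 4 and 0 in CCS1477. SLCO1A2 had 1 count in 2 libraries, and SLCO1C1, of the blood-brain barrier, and SLCO6A1, of testis, were listed at 0 in all 6. The liver pair therefore differed, with SLCO1B3 at 6.93 to 13.84 TPM and SLCO1B1 at 0 to 0.49 TPM.

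Genes next to SLCO4A1 were examined within 500 kb of it. Of 58 entries, 18 were tested, with 1 lower and 1 higher (5.56% each) and a median of 0.03 in log2 fold change, against 10.7%, 7.23% and -0.003 over all tested genes. MRGBP, a subunit of the NuA4 acetyltransferase complex, fell from 77.7 ± 11.4 to 58.0 ± 3.08 CPM (SD, n = 3), a log2 change of -0.42 ± 0.12 (SE; adjusted p = 0.0276, Benjamini-Hochberg over all tested genes in edgeR). ENSG00000273619, annotated as antisense to the ribosomal protein gene RPS21, rose at 0.92 ± 0.27 (SE, adjusted p = 0.0352 in the same edgeR test). Leaving out any 1 library but DMSO 2 ended the call of MRGBP, and leaving out any 1 but DMSO 3 ended that of ENSG00000273619.

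NTSR1, the neurotensin receptor gene, starts 66.3 kb downstream of the SLCO4A1 start. Its mean CPM was 2.84 ± 1.06 with DMSO and 1.09 ± 0.387 with CCS1477 (SD, n = 3), a log2 fold change of -1.36 ± 0.45 (SE) that did not pass (adjusted p = 0.0548, Benjamini-Hochberg over all tested genes in edgeR) but passed without DMSO 2 (adjusted p = 0.0223). OGFR downstream and LAMA5 upstream had log2 fold changes of 0.13 ± 0.14 and -0.03 ± 0.10 (SE), and were named after their values were seen. Also upstream within the 500 kb, RPS21, a ribosomal protein gene, and ENSG00000226332 stood at -0.50 and -1.02, with overlapping groups, and did not pass (adjusted p = 0.141 and 0.152 in edgeR). Both were also named after their values were seen, and the 18 tested neighbours include SLCO4A1-AS2.

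**Figure D4:**
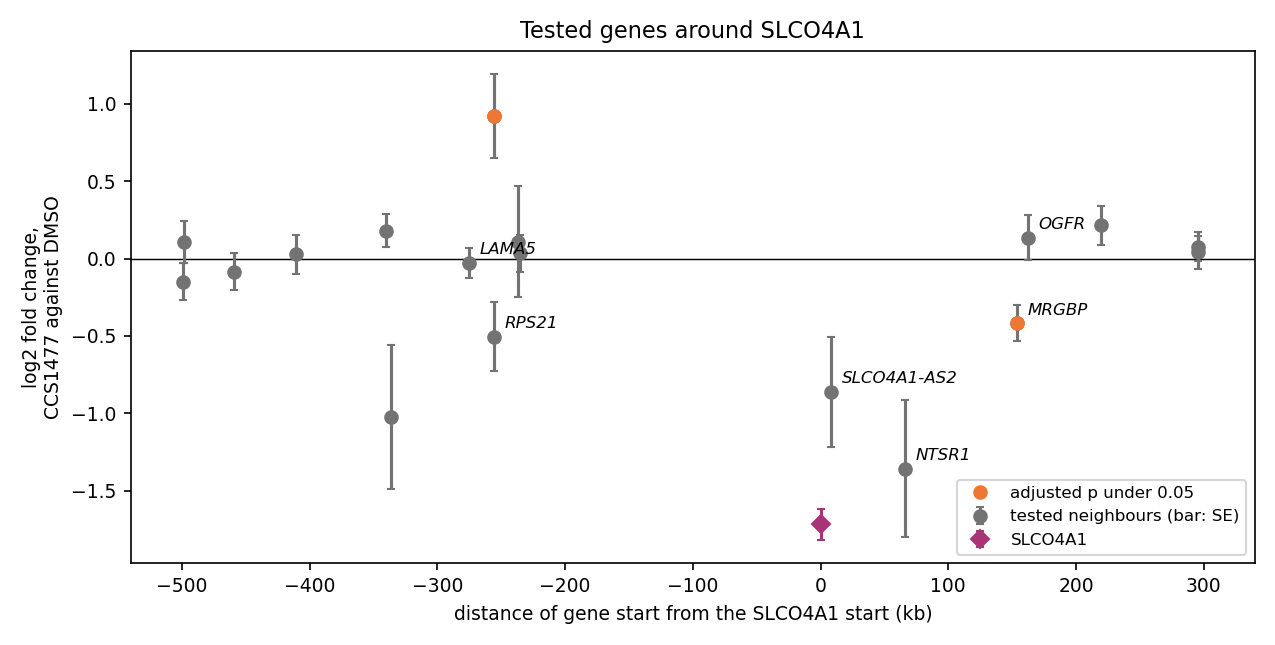
Log2 fold change (vertical axis, bar: SE) of the 18 tested neighbours against the distance of their start from the SLCO4A1 start in kb (horizontal axis). The 2 genes past the threshold are orange, and SLCO4A1 itself, at -1.71, is a purple diamond below all of them.

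SLCO2A1 acts in the prostaglandin pathway, so its other genes are given. Of 15 tested genes for synthesis, export, breakdown and receptors, 2 were lower (13.3%) and 1 higher (6.67%), against 10.7% and 7.23% over all tested genes, with a median of -0.04 in log2 fold change. PTGES, which makes prostaglandin E2, fell from 53.6 ± 8.78 to 22.2 ± 2.42 CPM (SD, n = 3), a log2 change of -1.27 ± 0.14 (SE; adjusted p = 0.000123, Benjamini-Hochberg over all tested genes in edgeR). ABCC4, a pump that exports prostaglandins, fell by 0.54 on the log2 scale (adjusted p = 0.0154), and PRXL2B, a prostaglandin F synthase, rose at 0.37 (adjusted p = 0.0453 in the same edgeR fit). PTGER1, a prostaglandin E2 receptor, stood at 1.11 ± 0.41 (SE) and did not pass (adjusted p = 0.0828 in the edgeR fit).

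PTGS2, the inducible cyclooxygenase, named after its values were seen, was at 0.09 to 0.86 TPM over the 6 libraries with overlapping groups. The call of ABCC4 ended without DMSO 1, CCS1477 2 or CCS1477 3, that of PRXL2B without any 1 library but DMSO 3, and PTGER1 passed without DMSO 1.

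Steroid sulfates and thyroid hormones are substrates of several members. Of 19 tested genes that make, activate or sense these hormones, 3 were lower (15.8%) and 1 higher (5.26%), against 10.7% and 7.23% over all tested genes, with a median of -0.03 in log2 fold change. PAPSS2 and PAPSS1 make the sulfate donor for steroid sulfation, and they moved in opposite directions. PAPSS2 fell from 42.8 ± 0.949 to 25.9 ± 2.20 CPM and PAPSS1 rose from 53.4 ± 2.84 to 68.4 ± 2.46 CPM (SD, n = 3, adjusted p = 0.00121 and 0.0234, Benjamini-Hochberg over all tested genes in edgeR).

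THRA, a thyroid hormone receptor, fell by 0.59 on the log2 scale (adjusted p = 0.0229 in the same edgeR fit). The call of THRA ended without CCS1477 1, CCS1477 2 or CCS1477 3, and that of PAPSS1 without any 1 library but DMSO 3.

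Some other carriers of organic anions and drugs share substrates with the OATPs. The list used for them also holds relatives of such carriers, among them an organic cation transporter, so shared substrates do not hold for every gene. Of 20 tested, 5 were lower (25%) and 1 higher (5%), against 10.7% and 7.23% over all tested genes, with a median of -0.02 in log2 fold change. The efflux pump ABCC3 fell from 156.7 ± 5.80 to 91.0 ± 5.14 CPM and ABCC10 rose from 53.3 ± 6.24 to 92.0 ± 7.23 CPM (SD, n = 3, adjusted p = 0.000111 and 0.000603, Benjamini-Hochberg over all tested genes in edgeR). ABCC1, another pump of conjugated anions, fell by 0.41 and SLC22A18 by 0.62 on the log2 scale (adjusted p = 0.0109 and 0.0243 in the same edgeR fit).

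The other lower genes, named after their values were seen, were the organic cation transporter SLC22A3 at -2.26 and ABCC6 at -1.04, which has near-identical pseudogene copies. The lower count was 1 without DMSO 1 and 3 without DMSO 2, CCS1477 1, CCS1477 2 or CCS1477 3. ABCC1 did not pass without DMSO 1 or CCS1477 2, and SLC22A18 did not without DMSO 1 or CCS1477 1. ABCC6 passed only without DMSO 3 among the fits that left out 1 library, and did not pass in DESeq2 (adjusted p = 0.053). SLC22A3 did not pass without DMSO 1, DMSO 2 or CCS1477 3, nor in DESeq2 (adjusted p = 0.185). SLC22A3 had a log2 fold change of -3.37 without CCS1477 1 and -1.65 without CCS1477 2.

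**Figure D5:**
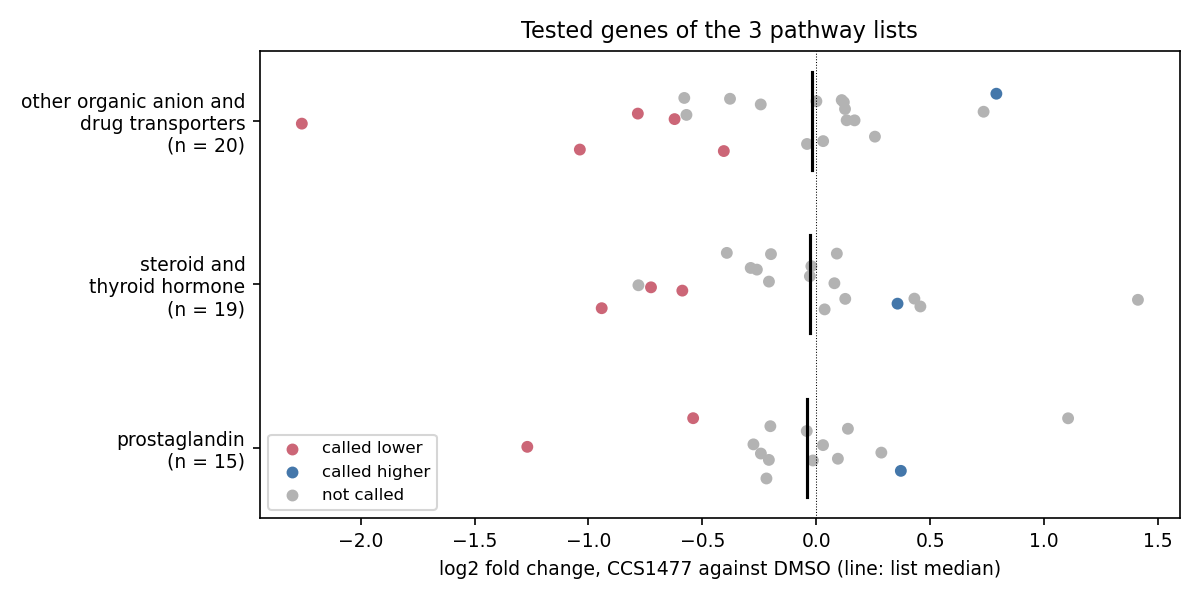
Log2 fold change (horizontal axis) of each tested gene of the prostaglandin (15 genes), steroid and thyroid hormone (19) and other transporter (20) lists, coloured by call, with the list median as a black line. All 3 medians lie within 0.05 of 0, while single genes such as PTGES at -1.27 and SLC22A3 at -2.26 stand apart. SLC22A3 had a mean of only 0.865 CPM in CCS1477.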

How the data were processed

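The authors deposited 1 table of estimated counts and 1 of TPM per gene for 6 libraries, with replicates kept separate. In the deposited estimated counts, 10.2% to 10.7% of nonzero values were not whole, and they were rounded before testing. The deposited TPM have the same sum in each library. Trimmomatic 0.39 is named per the submitters' processing notes, while aligner, quantifier, genome build and strandedness were not given in the sources used here. Coordinates are those of the files, and 80% of the shared gene IDs had the same coordinates in GENCODE 29 (GRCh38).

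Of 60623 genes, 14928 passed edgeR's filterByExpr (minimum count 10, minimum total 15). CCS1477 was compared with DMSO by edgeR 4.0.16 (TMM, quasi-likelihood test, Benjamini-Hochberg adjustment, threshold 0.05) without covariates. CPM are TMM-normalised, and standard errors come from the test statistic. Alternatives used DESeq2 1.42.0, limma 3.58.1 on log2(TPM + 1) and log2(TPM + 0.1), other scaling, filters and thresholds, a replicate block and leaving out each library, in R 4.3.3. The procedure was tested on simulated data.

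The members, lists and rules were chosen with earlier results of these data known. Named were all SLCO genes and, from each list, the 4 of smallest adjusted p, and up to 2 that were called the opposite way. For members with at least 5 CPM in mean, the 3 genes with the highest correlation were also named. Adding overlapping entries to SLCO4A1 and SLCO1B3 was chosen after seeing the data. A few genes that these rules name are not reported here.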

Additional observations from a re-analysis of the deposited data

How the results depend on the processing

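SLCO4A1 and SLCO2A1 kept their direction and call under every alternative run, and SLCO4C1 stayed uncalled. Leaving out 1 library at a time gave log2 fold changes of -1.81 to -1.63 for SLCO4A1, -2.31 to -1.62 for SLCO4A1-AS1, -3.14 to -2.61 for SLCO2A1, -0.82 to -0.52 for SLCO1B3 and -0.30 to -0.01 for SLCO4C1, and 3 to 4 members lower. SLCO4A1-AS1 has no value with a minimum count of 30. SLCO1B3 did not pass on the log2(TPM + 1) scale (-0.53) or the log2(TPM + 0.1) scale (-0.58), and at an adjusted p of 0.01 neither SLCO1B3 (-0.64) nor SLCO4A1-AS1 (-2.02) passed, which left 2 members lower. The cause of the changes on the TPM scales was not tested.

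Over all genes, 1079 were higher and 1597 lower, with 487 to 1311 and 925 to 1772 when 1 library was left out. Without DMSO 1 they were 555 and 973, without CCS1477 2 they were 489 and 925, and without CCS1477 3 they were 487 and 1042. They were 293 and 427 on log2(TPM + 1), 280 and 410 on log2(TPM + 0.1), and 380 and 852 at an adjusted p of 0.01. Scaling by library size alone made 48.3% of the calls lower ones, against 59.7%.

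On both TPM scales the counts were 0 higher and 1 lower for prostaglandin genes and 0 and 0 for the hormone and the other transporter lists, with 0 lower around SLCO4A1. At an adjusted p of 0.01 they were 0 and 1 (prostaglandin), 0 and 1 (hormone), 1 lower (transporters) and 0 and 0 (around SLCO4A1). DESeq2 gave 0 prostaglandin genes higher, 2 hormone genes higher and 3 transporters lower. Hormone genes higher numbered 2 with library size alone and 2 without a filter, which also gave 3 genes lower around SLCO4A1. With 1 library left out, the ranges were 0 to 1 higher and 1 to 2 lower (prostaglandin), 0 to 2 and 2 to 4 (hormone), 1 and 1 to 5 (transporters), and 0 to 2 and 0 to 3 (around SLCO4A1). PTGS2 ran from -0.26 to 0.52 with 1 library left out, and was reversed without DMSO 3 (-0.26) and without CCS1477 3 (-0.21).

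The replicate block gave 0 prostaglandin genes higher, 0 hormone genes higher and 0 genes lower around SLCO4A1, and left all 5 tested members with the same call. MRGBP, PRXL2B, PAPSS1 and ABCC6 did not pass with it. Same-numbered libraries had correlations of deviations of -0.087, -0.196 and -0.007, and no library correlated best with its own number. With 3 libraries per group these values cannot decide whether same-numbered samples were paired, and the labels do not say. Depth limits SLCO4A1-AS1, with 2 to 36 counts, and SLCO2B1 and SLCO5A1, at or near the floor.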

Other observations

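Genes whose log2 CPM followed a member most closely over the 6 libraries were listed as a description. For SLCO4A1 they were the keratin KRT80 (Pearson r = 0.999), the kinase gene RPS6KA2 (0.9988) and the Wnt inhibitor DKK1 (0.9986), which had log2 fold changes of -1.19, -1.02 and -0.89. The 6 points fall into the 2 treatment groups and share library and depth, and 203 of the 11440 genes compared reached a correlation above 0.98. For SLCO1B3 they were IBTK, PNPT1, an RNA-degrading enzyme of mitochondria, and PPT1, a lysosomal thioesterase (0.9969, 0.995 and 0.9944), with log2 fold changes of -0.36, -0.36 and -0.29. For SLCO4C1 they included ZNF143 and the mitotic checkpoint kinase BUB1B (0.9763 and 0.97), with log2 fold changes of -0.09 and -0.08. SLCO2A1 and SLCO4A1-AS1 were under the 5 CPM set for this listing.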
